A study of Saccharomyces cerevisiae with 45 samples.

Results

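The transcripts of 10 genes of DNA replication were followed in germinating spores of the yeast Saccharomyces cerevisiae, out of 6723 genes in the table of read counts. The members were chosen by name, with earlier results of these data known. They were RNR1 (YER070W) and CDC21 (YOR074C) for the supply of deoxynucleotides, CDC6 (YJL194W) and CDC45 (YLR103C) for the start of replication, POL1 (YNL102W) and POL2 (YNL262W) for DNA synthesis, POL30 (YBR088C) for the sliding clamp, RFA1 (YAR007C) and RFA2 (YNL312W) for the coating of single strands, and CDC9 (YDL164C) for ligation. All 10 passed the filter on low counts in every comparison made here. RNA-Seq was performed in 15 conditions, each with replicates A, B and C, for a total of 45 libraries. All libraries came from wild-type spores of the SK1 background, made by sporulating diploid cells in liquid medium and purified with zymolyase and sonication. The 15 conditions were purified spores, spores shaken at 30 °C in the rich medium YPD with the solvent DMSO, and spores shaken in YPD with 2000 nM rapamycin, an inhibitor of the kinase complex TORC1. Both cultures were sampled at transfer (0 min), after 10, 30 and 60 min, and then after 120, 240 and 360 min. Rapamycin was present from the start of germination, so its comparison with DMSO asks whether the replication genes reach the levels of the control culture in its presence. The authors measured TORC1 activity in germinating spores by phosphorylation of its substrate Sch9. They reported that rapamycin inhibited it after 60 min in nutrient medium.

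A spore is a dormant haploid cell that has left the division cycle, and it has to return to G1 before it can copy its DNA. In dividing yeast, transcripts of most of the genes listed here peak at the passage from G1 into S phase. At that time the factor MBF, made of Mbp1 and Swi6, acts through the promoter element MCB, and the related factor SBF, made of Swi4 and Swi6, acts through the element SCB. Cdc6 loads the replicative helicase on origins, Cdc45 joins the loaded helicase when origins fire, Pol1 and Pol2 are the catalytic subunits of DNA polymerases alpha and epsilon, and Pol30 is PCNA, which holds polymerases on DNA. Rfa1 and Rfa2 are subunits of replication protein A (RPA), Cdc9 joins Okazaki fragments, Rnr1 is the large subunit of ribonucleotide reductase, and Cdc21 is thymidylate synthase.

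Windows at the promoters of the members were searched for these elements, and bases further upstream were not read. Windows from 250 bases before to 50 bases after the start of the coding sequence were read from the R64 reference genome for the MCB core ACGCGT, which reads the same on both strands, and for the SCB element CNCGAAA on either strand. The MCB core occurred in 9 of the 10 members (90%), in 3.07% of 6001 protein-coding genes and in 21 of 67 other genes of the replication pathway (31.3%). At least 2 cores occurred in 5 members (50%) against 0.35% of all genes. The SCB element occurred in 4 members (40%) against 13.8% of all genes, and the window of RNR1 held it and no MCB core. The reads were aligned to the SK1 genome, whose promoters were not examined, and a match describes letters and not a site in use. The stretches that hold the matches are printed from the coding strand, 5′ to 3′, with up to 15 bases on either side. Capitals mark the MCB core, and in RNR1 the SCB element.
POL1: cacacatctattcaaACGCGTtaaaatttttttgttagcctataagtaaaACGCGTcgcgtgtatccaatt
CDC21: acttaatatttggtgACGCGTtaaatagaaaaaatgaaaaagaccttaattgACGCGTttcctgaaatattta
RFA1: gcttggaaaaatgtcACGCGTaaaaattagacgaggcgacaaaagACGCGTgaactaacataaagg
RFA2: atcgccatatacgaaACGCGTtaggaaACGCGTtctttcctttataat
CDC45: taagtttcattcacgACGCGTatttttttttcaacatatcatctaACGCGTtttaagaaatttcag
POL2: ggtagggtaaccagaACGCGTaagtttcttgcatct
POL30: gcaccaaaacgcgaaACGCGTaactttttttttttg
CDC9: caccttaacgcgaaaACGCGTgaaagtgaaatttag
CDC6: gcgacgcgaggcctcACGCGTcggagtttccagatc
RNR1: gtaggtagTTTCGTGtttgatagaaacctc

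These stretches lie at chrXIV:429864-429934 for POL1, chrXV:467690-467762 for CDC21, chrI:158734-158799 for RFA1, chrXIV:48152-48199 for RFA2, chrXII:346071-346136 for CDC45, chrXIV:148082-148117 for POL2, chrII:425941-425976 for POL30, chrIV:167359-167394 for CDC9, chrX:69119-69154 for CDC6 and chrV:298700-298729 for RNR1. POL1, POL2, RFA2, CDC6 and RNR1 are on the forward strand of R64 and the other members on the reverse strand. All printed matches are upstream of the coding sequence. The first bases of the cores were 208 and 173 bases before the start of POL1, 158 and 121 before CDC21, 165 and 135 before RFA1, 120 and 108 before RFA2, and 180 and 150 before CDC45. The single cores were 115 bases before POL2, 195 before POL30, 125 before CDC9 and 204 before CDC6. In POL30 and CDC9 an SCB match lay directly before the MCB core, beginning 201 and 132 bases before the start, so that in POL30 the 2 elements share a base. The SCB match of RNR1 was 242 bases before its start, and that of RFA1 was within its coding sequence.

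The libraries held from 7736397 to 14522407 counted reads, and each member had between 56 and 6965 reads in every library. Levels are given as CPM, read counts relative to the size of the library, after scaling library sizes by TMM over all 45 libraries. Marker genes of cell states followed the labels when spores were compared with 360 min. The 6 spore genes SPS100, DIT1, DIT2, HSP12, HSP26 and TSL1 summed to between 17285 and 21553 CPM in purified spores, to between 83.8 and 113.6 CPM after 360 min in DMSO and to between 204 and 329 CPM after 360 min in rapamycin. The 4 growth genes RPL3, RPS3, PMA1 and CDC19 summed to between 6344 and 7849 CPM in spores, to between 19619 and 24604 CPM after 360 min in DMSO and to between 9707 and 17089 CPM after 360 min in rapamycin. None of these genes was at 0 in a whole condition. In spores SPS100 (11566 CPM) and HSP12 (6862 CPM) made up most of the first sum and CDC19 (6145 CPM) most of the second. Between these times some went the other way. At 10 min in DMSO CDC19 was at 3034 CPM, the growth genes summed to between 3972 and 4695 CPM, and DIT2 had risen from 1.61 to 4.72 CPM. With rapamycin HSP26 went from 18.7 CPM at 60 min to 199 CPM at 240 min. The 6 meiosis genes SPO11, DMC1, REC8, NDT80, HOP1 and ZIP1 fell from between 150.5 and 167.6 CPM in spores to between 17.0 and 20.3 CPM after 120 min in DMSO, over the times at which several members fell, and their part in those falls was not tested. The library of rapamycin 360 min replicate A stood apart from its replicates. Over all genes its counts differed from those of replicates B and C by a chi-square per degree of freedom of 189 and 171, against 5.49 between B and C and 8.64 to 73.6 between replicates of the other conditions. Several results at 360 min with rapamycin, but not all, are therefore also given without it, a choice made after seeing the data. In RNA from whole cultures, fewer cells in a state and less RNA per cell cannot be told apart.

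In the control culture the 10 genes did not move as 1 block. Between spores and 120 min, RNR1 rose from 10 min on, POL1 and POL2 fell and then rose, and POL30, RFA1, RFA2, CDC9 and CDC21 fell. Between 120 and 360 min the mean of every member went up, and by 360 min 7 of the 10 were at least 2-fold above spores. Each comparison was tested on its 6 libraries with edgeR's quasi-likelihood test, and a gene was called changed with an adjusted p (Benjamini-Hochberg) under 0.05 and a change of at least 2-fold. Against spores, no member and no gene was called at 0 min in DMSO (0% of 5742 genes; 948 genes, among them 2 members, had an unadjusted p under 0.05, and DESeq2 called 15 genes and no member). At 10 min, 3 members were called lower against 7.37% of all genes and 0 higher against 15.4%. Without spores replicate A, 2 members were called at 10 min. At 30 min, 4 members were lower against 20% of genes and 1 higher against 24.3%. At 60 min, 5 were lower against 26.8% and 1 higher against 28.5%, and at 120 min, 5 were lower against 30.8% and 1 higher against 31%. At 240 min, 5 were higher against 30.1% and 0 lower against 29.9%, and at 360 min, 7 were higher against 29.4% and 0 lower against 28.6%. The 240 min calls depended on the scaling: by library size alone only RNR1 and POL30 were called higher, POL1 (0.87), CDC45 (0.74) and CDC6 (0.92) were under 2-fold, and RFA2 was called lower (-1.09). Nearly 3 in 10 genes were called in each direction at the last times, so the count of 7 is read against a high background. At 30 min the count of 5 called members fell to 3 without DMSO replicate A or without spores replicate B.

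**Figure D1:**
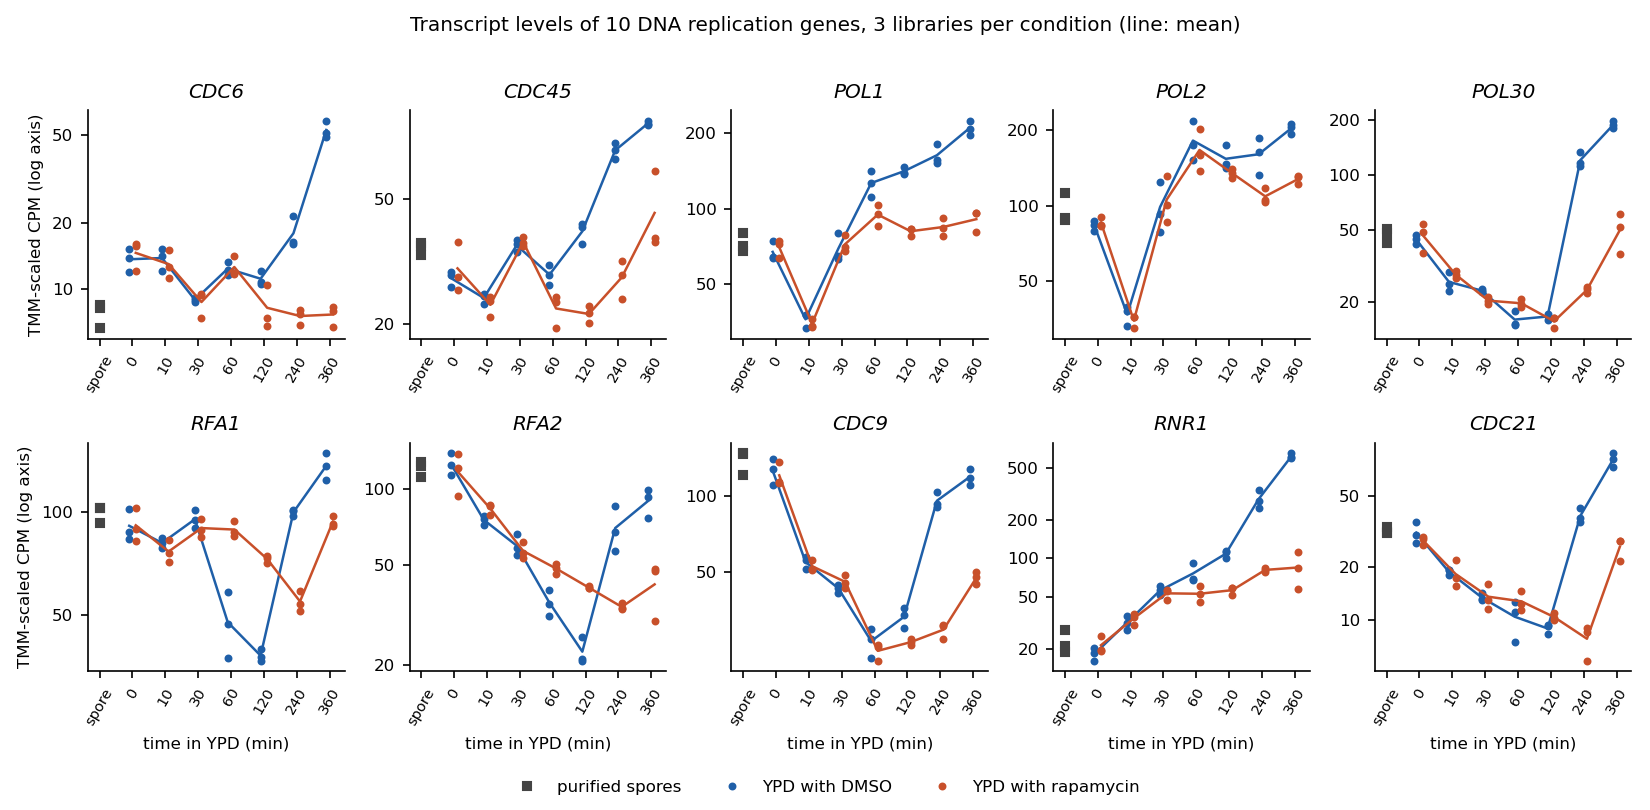
TMM-scaled CPM (log axis, its own range in each panel) of the 10 members in purified spores (squares) and over time in YPD with DMSO (blue) or rapamycin (orange), with 1 point per library and lines through the means of 3 libraries. RNR1 rises in DMSO from a mean of 22.7 CPM in spores to 618.4 CPM at 360 min, POL30 and CDC21 pass through a minimum at 60 or 120 min, and 0 members were called between the treatments up to 30 min.

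The steps between successive times in DMSO differed in how many members were called. Between 60 and 120 min in DMSO, 0 members were called by edgeR or by DESeq2 against 18.3% of genes in either direction, while 4 members had an unadjusted p under 0.05. Between 120 and 240 min, 6 members were called higher against 14.3% of genes. With the adjusted p alone, 9 were higher against 36.5% of genes. The log2 fold changes of the 6 were 2.94 ± 0.10 (SE) for POL30, 2.20 ± 0.13 for CDC21, 1.73 ± 0.15 for RFA2, 1.63 ± 0.10 for CDC9, 1.504 ± 0.12 for RNR1 and 1.49 ± 0.08 for RFA1. The median over the 10 members was 1.499 and that of all genes 0.02. Between 240 and 360 min, CDC6, RNR1 and CDC21 were called higher against 5.27% of genes, with log2 fold changes of 1.61 ± 0.14, 1.15 ± 0.13 and 1.11 ± 0.10. With the adjusted p alone, all 10 members were higher at this last step against 22.6% of genes.

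**Figure D2:**
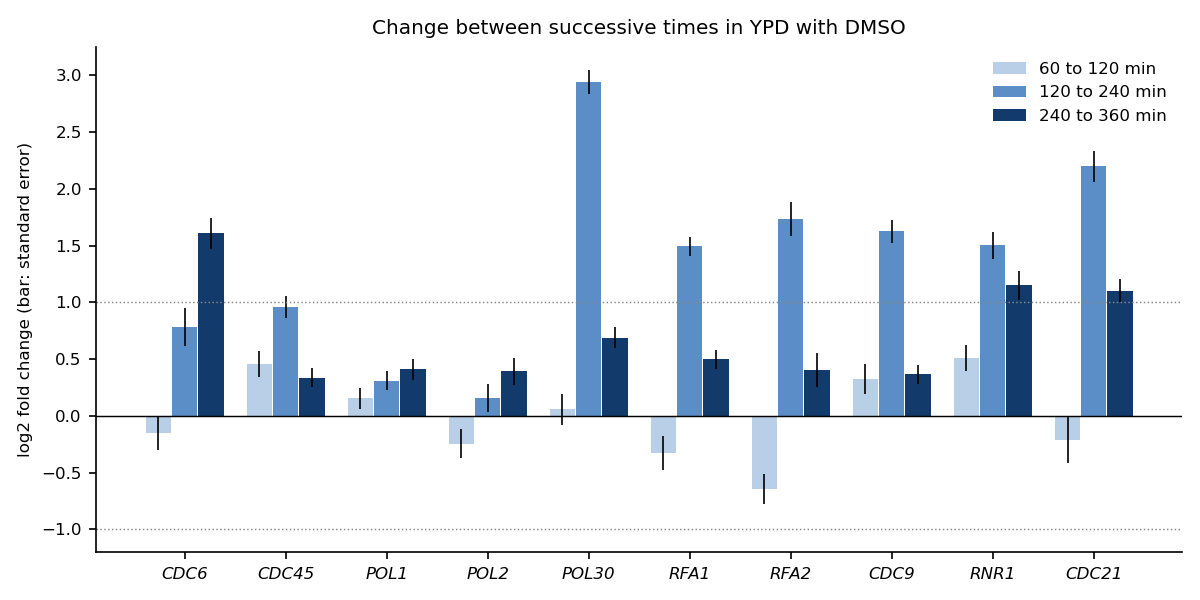
Log2 fold change of each member between successive times in YPD with DMSO, from 3 libraries against 3 (bars, with standard errors; dotted lines mark 2-fold). POL30 and CDC21 rose most between 120 and 240 min (2.94 and 2.20), and CDC6 rose more between 240 and 360 min (1.61) than between 120 and 240 min (0.78).

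CDC6 rose by less than 2-fold in the first minutes in DMSO and by more between 240 and 360 min. Its level was 6.62, 8.42 and 8.16 CPM in the spore libraries, 12.1, 14.1 and 15.2 CPM at 10 min (log2 0.84 ± 0.15 over spores, adjusted p = 0.00048), 12.1, 10.8 and 10.5 CPM after 120 min in DMSO, 21.5, 16.3 and 15.9 CPM after 240 min and 58.1, 51.0 and 49.0 CPM after 360 min. The 360 min libraries were thus above all others, at a log2 fold change over spores of 2.75 ± 0.14 (adjusted p = 1.48e-10). At 0 min it was 15.1, 13.8 and 11.96 CPM, above every spore library, but the change missed the threshold in the fit over all genes (log2 0.82 ± 0.17, adjusted p = 0.10). With rapamycin CDC6 was at 6.73, 7.91 and 8.32 CPM after 360 min, within the range of the spore libraries. The difference between treatments was -1.30 ± 0.16 (log2) at 240 min and -2.75 ± 0.15 at 360 min (adjusted p = 1.51e-05), or -2.68 without rapamycin replicate A.

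CDC45 was below spores at 10 and 60 min in DMSO and above them later. It was at 35.5, 36.1 and 33.1 CPM in spores, at 23.1, 24.9 and 24.6 CPM at 10 min in DMSO, below all spore libraries but by less than 2-fold (-0.53 ± 0.09, adjusted p = 0.00035), at 30.8, 28.7 and 26.7 CPM at 60 min (-0.31 ± 0.11, adjusted p = 0.022), and at 40.8, 41.7 and 36.0 CPM after 120 min. It then reached 75.8, 67.2 and 72.1 CPM at 240 min and 86.9, 86.3 and 89.2 CPM at 360 min, above all earlier libraries. The change over spores was 1.02 ± 0.10 at 240 min, which was under 2-fold without any 1 of the spore libraries or without DMSO replicate A (0.93 to 0.99), and 1.31 ± 0.10 at 360 min. With rapamycin it was at 28.7, 23.9 and 31.8 CPM at 240 min (log2 fold change against DMSO -1.40 ± 0.11, adjusted p = 1.05e-07). At 360 min the rapamycin libraries disagreed, with 61.5 CPM in replicate A and 37.7 and 36.6 CPM in the others. The difference there was -0.91 ± 0.21 (adjusted p = 0.012), under 2-fold, and -1.21 without rapamycin replicate A.

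The polymerase genes POL1 and POL2 fell at 10 min and were above spores at 60 min. POL1 dropped from 80.1, 67.6 and 71.1 CPM in spores to 37.7, 37.6 and 33.4 CPM at 10 min in DMSO, and POL2 from 112, 87.3 and 88.9 CPM to 38.1, 39.5 and 33.4 CPM. The log2 fold changes were -1.01 ± 0.10 for POL1 (adjusted p = 3.54e-06) and -1.37 ± 0.11 for POL2 (adjusted p = 1.29e-06). The size of these falls depended on the scaling. By library size alone the mean of POL1 went from 71.3 CPM in spores to 45.6 CPM, less than 2-fold, and that of POL2 from 94.0 to 46.6 CPM. Both were back in the range of spores or close to it at 30 min and above it at 60 min, POL1 at 142, 127 and 111 CPM and POL2 at 217, 174 and 152 CPM. These changes at 60 min were under 2-fold (0.77 ± 0.11 and 0.89 ± 0.14).

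At 360 min in DMSO, POL1 had risen to 209, 197 and 225 CPM and POL2 to 206, 193 and 210 CPM, or 1.51 ± 0.09 and 1.06 ± 0.10 over spores on the log2 scale. The call for POL2 was lost without spores replicate B (0.95) or C (0.97), and under scaling by library size alone (0.98). With rapamycin POL1 was at 80.5, 96.2 and 96.0 CPM and POL2 at 129, 122 and 131 CPM at that time, below every DMSO library. The difference in POL1 was -0.37 ± 0.12 at 60 min (adjusted p = 0.025), -0.78 ± 0.06 at 120 min, -1.003 ± 0.09 at 240 min and -1.18 ± 0.12 at 360 min. Its adjusted p at 60 min reached 0.098 when 1 library was left out. The 240 min value was under 2-fold without DMSO replicate A (-0.91), rapamycin replicate B (-0.94) or rapamycin replicate C (-0.99). In POL2 the difference was -0.61 ± 0.12 at 240 min and -0.64 ± 0.11 at 360 min, with adjusted p = 0.00039 and 0.0034 but under 2-fold.

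POL30, the gene of the sliding clamp, fell and then rose well past its level in spores. It went from 50.4, 48.2 and 42.6 CPM in spores to 15.2, 17.99 and 15.1 CPM at 60 min and 16.9, 16.0 and 17.4 CPM at 120 min in DMSO. It then stood at 134, 116 and 112 CPM at 240 min and at 187, 198 and 180 CPM at 360 min, with no overlap between these groups. The log2 fold change against spores was -1.57 ± 0.13 at 60 min and 1.98 ± 0.09 at 360 min. With rapamycin it was at 16.4, 14.4 and 16.5 CPM at 120 min (against DMSO -0.07 ± 0.12, adjusted p = 0.59, but 0.43 with adjusted p = 0.012 under scaling by library size). POL30 was then at 23.7, 22.5 and 24.2 CPM at 240 min and 36.7, 51.6 and 61.0 CPM at 360 min. The difference from DMSO was -2.42 ± 0.10 at 240 min (adjusted p = 2.20e-10), the largest among the 10 members at that time, and -1.89 ± 0.18 at 360 min.

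CDC9, the ligase gene, fell to its lowest level by 60 min. It was at 148, 147 and 121 CPM in spores, 55.7, 57.2 and 51.1 CPM at 10 min and 27.0, 29.6 and 22.8 CPM at 60 min in DMSO. The change was -1.34 ± 0.10 at 10 min and -2.42 ± 0.12 at 60 min (adjusted p = 1.67e-09). It recovered to 118, 111 and 128 CPM at 360 min, a change from spores of -0.24 ± 0.10. With rapamycin it remained at 30.6, 27.1 and 30.5 CPM at 240 min and reached 44.7, 47.4 and 49.8 CPM at 360 min, below all DMSO libraries of those times. The differences were -1.75 ± 0.09 and -1.30 ± 0.11.

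By the adjusted p, the RPA genes were the only members higher with rapamycin at 60 and 120 min and lower at 240 and 360 min. POL30 (0.34), CDC21 (0.33) and CDC6 (0.07) were also above 0 at 60 min, and CDC21 (0.23) at 120 min, without passing it. RFA1 was at 103, 103 and 93.1 CPM in spores and at 94.9, 101.3 and 89.5 CPM at 30 min in DMSO, and fell to 46.9, 58.4 and 37.5 CPM at 60 min and 37.6, 39.7 and 36.7 CPM at 120 min. With rapamycin it was at 87.1, 85.3 and 94.0 CPM at 60 min and 74.4, 70.9 and 73.2 CPM at 120 min, above every DMSO library of the same time. The differences were 0.95 ± 0.15 (adjusted p = 0.0011) and 0.96 ± 0.07 (adjusted p = 3.66e-07), just under 2-fold, and the first was 1.12 without DMSO replicate B at 60 min. At 240 min the order was turned, with 100.9, 97.3 and 101.2 CPM in DMSO and 54.0, 51.4 and 58.8 CPM in rapamycin (-0.92 ± 0.08, adjusted p = 3.38e-07). At 360 min RFA1 stood at 124, 137 and 149 CPM in DMSO and 92.1, 91.1 and 97.6 CPM in rapamycin (-0.51 ± 0.12, adjusted p = 0.01). The level in rapamycin at 360 min did not differ from that of spores by more than the spread (-0.10 ± 0.11, adjusted p = 0.41).

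RFA2 did the same from a steady fall. It was at 124, 129 and 112 CPM in spores, 54.5, 66.1 and 58.2 CPM at 30 min and 25.8, 20.7 and 21.0 CPM at 120 min in DMSO, a change of -2.43 ± 0.11. With rapamycin it was at 40.3, 41.0 and 40.3 CPM at 120 min, above all DMSO libraries (0.86 ± 0.11, adjusted p = 2.05e-05; at 60 min 0.50 ± 0.11, adjusted p = 0.0051). DMSO then rose past rapamycin, to 85.8, 67.7 and 56.7 CPM against 35.2, 33.3 and 33.5 CPM at 240 min (-1.10 ± 0.13) and to 99.5, 93.2 and 76.9 CPM against 30.0, 47.2 and 48.2 CPM at 360 min (-1.08 ± 0.20). These differences were under 2-fold without DMSO replicate A at 240 min (-0.92) and without DMSO replicate A (-0.997) or rapamycin replicate A (-0.89) at 360 min. RFA2 was the only member besides RFA1 and CDC9 not above spores by 2-fold at 360 min in DMSO.

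The genes of deoxynucleotide supply behaved differently from each other. RNR1 rose from 21.2, 27.9 and 19.0 CPM in spores to 60.8, 57.2 and 51.9 CPM at 30 min, 101.5, 112 and 114 CPM at 120 min, 341, 245 and 278 CPM at 240 min and 604, 653 and 598 CPM at 360 min in DMSO. From 30 min on each group lay above the one before it. The log2 fold change over spores was 1.33 ± 0.14 at 30 min and 4.76 ± 0.14 at 360 min (adjusted p = 5.44e-13), the largest of the 10 members. With rapamycin RNR1 was at 57.2, 56.3 and 47.9 CPM at 30 min, at 52.5, 59.0 and 59.3 CPM at 120 min, and above both at 240 min, at 78.9, 84.2 and 81.6 CPM. At 360 min its libraries held 57.8, 85.2 and 113 CPM. The difference between treatments was -0.48 ± 0.15 at 60 min (adjusted p = 0.024), -0.92 ± 0.07 at 120 min, -1.87 ± 0.12 at 240 min and -2.83 ± 0.24 at 360 min (adjusted p = 0.00011). The adjusted p at 60 min reached 0.084 when 1 library was left out.

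CDC21 followed the path of POL30 instead. It was at 33.8, 31.0 and 31.5 CPM in spores and at 9.40, 8.37 and 9.29 CPM after 120 min in DMSO (-1.83 ± 0.12, adjusted p = 1.23e-08). It then reached 43.1, 35.6 and 37.7 CPM at 240 min and 73.1, 81.4 and 87.4 CPM at 360 min, each group above the last. With rapamycin it was at 10.3, 10.98 and 10.1 CPM at 120 min, at 8.62, 5.93 and 9.13 CPM at 240 min, the lowest mean of any condition, and at 28.0, 21.7 and 28.1 CPM at 360 min. The difference from DMSO was 0.23 ± 0.14 at 120 min (adjusted p = 0.15), -2.34 ± 0.15 at 240 min (adjusted p = 1.79e-08) and -1.60 ± 0.15 at 360 min.

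Counted over the members, no difference between rapamycin and DMSO passed the test up to 30 min. At 0, 10 and 30 min, edgeR and DESeq2 called 0 members, and 0, 1 and 0 members had an unadjusted p under 0.05. The background was 0% of genes at 0 and 10 min and 0.0172% at 30 min. Same-lettered libraries of the treatments deviated together at these times (correlations of 0.49 to 0.77), and the main fit ignored the letters. Only 0.382%, 1.71% and 2.49% of all genes had an unadjusted p under 0.05 in edgeR, so this test was cautious here. With the replicate block, edgeR again called 0 members. At 60 and 120 min again 0 members reached 2-fold in edgeR or DESeq2, although 19.2% and 36.9% of all genes did so in either direction, and 6 and 7 members had an unadjusted p under 0.05. With the adjusted p alone, 2 members were higher (RFA1 and RFA2) against 31.2% of genes and 2 lower (RNR1 and POL1) against 29.2% at 60 min. At 120 min the same 2 were higher against 41.6% of genes, and RNR1, POL1, CDC9 and CDC45 were lower against 39.5%. These calls too depended on the scaling. By library size alone RFA1 was called higher at 60 min (1.26) and RFA1 (1.46) and RFA2 (1.36) at 120 min, and CDC9 at 120 min turned to 0.18. With that scaling the means of POL1 at 60 min were 107 CPM in DMSO and 102 CPM in rapamycin, and those of RNR1 64.5 and 57.3 CPM. When 1 library was left out, the adjusted p at 60 min reached 0.098 for POL1 and 0.084 for RNR1, so these 2 lower values were not firm.

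At 240 min, 8 of the 10 members were called lower with rapamycin against 7.68% of 5648 genes, all but POL2 and RFA1, and at 360 min 7 of 10 against 5.3%. With the adjusted p alone, all 10 were lower at both times, against 36.3% and 18.5% of genes. The median log2 fold change over the members was -1.35 at 240 min and -1.24 at 360 min, beside 0.01 and 0.05 over all genes. Without rapamycin replicate A, again 7 members were called lower at 360 min (4.58% of genes), with CDC45 (-1.21 ± 0.09) in place of RFA2 (-0.89 ± 0.12), and all 10 with the adjusted p alone (29.6% of genes). The changes of the other 6 were then -2.68 for CDC6, -2.62 for RNR1, -1.72 for POL30, -1.68 for CDC21, -1.27 for CDC9 and -1.10 for POL1. Scaling by library size alone left 6 members called at 240 min and changed the split of all calls at that time from 798 higher and 434 lower to 1034 higher and 220 lower.

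**Figure D3:**
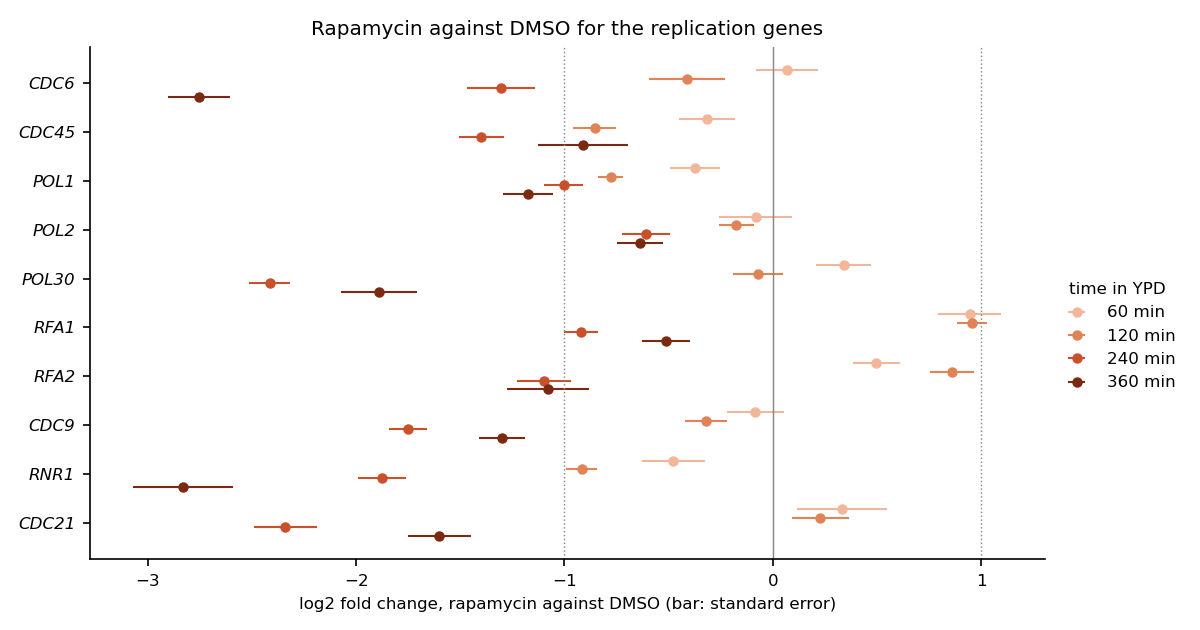
Log2 fold change of rapamycin against DMSO for the 10 members at 60, 120, 240 and 360 min (points, with standard errors, from 3 libraries against 3; dotted lines mark 2-fold). At 240 and 360 min all 10 members are below 0, down to -2.42 for POL30 at 240 min and -2.83 for RNR1 at 360 min. RFA1, RFA2 and CDC21 are above 0 at 60 and 120 min, CDC21 without an adjusted p under 0.05.

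Because several members already differed at 120 min, the change after 120 min was compared between the treatments as an interaction over 12 libraries. From 120 to 240 min, the change of POL30, RFA1, RFA2, CDC9 and CDC21 was lower with rapamycin by at least 2-fold, 5 members against 16.5% of genes. With rapamycin the means of RFA1, RFA2 and CDC21 went down over this time, by log2 changes of -0.41, -0.26 and -0.41. From 120 to 360 min, the change of 6 members was lower by at least 2-fold against 18.5% of genes, namely RNR1, POL30, RFA1, RFA2, CDC21 and CDC6. With the adjusted p alone, 9 members had a lower change up to 240 min against 33.9% of genes and 9 up to 360 min against 29%. CDC9 joined them in the fit with the replicate block, in DESeq2 and without the filter on low counts, which gave 7, and also without rapamycin 360 min replicate A (-1.07; 20.8% of genes). Mean levels show the difference directly. POL30 went up 11.2-fold between 120 and 360 min in DMSO and 3.15-fold in rapamycin, CDC21 8.94-fold and 2.48-fold, and RNR1 5.68-fold and 1.496-fold. Without replicate A the rapamycin values were 3.57-fold, 2.38-fold and 1.74-fold. CDC45 went up 2.21-fold in DMSO and 2.10-fold in rapamycin, with an interaction of -0.07 ± 0.25 (adjusted p = 0.82), but this rested on replicate A. Without it the rise in rapamycin was 1.73-fold and the interaction -0.48 ± 0.12 (adjusted p = 0.003).

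With rapamycin, 4 members were called lower than in spores at 60 min (19.9% of genes), 4 at 120 min (21.2%) and 4 at 240 min (25.2%), in each case POL30, RFA2, CDC9 and CDC21. At 360 min only RFA2 and CDC9 were still called lower (25.9% of genes), at -1.55 ± 0.19 and -1.56 ± 0.13. RNR1 was the only member called higher at these times, against 23.5%, 24.5%, 28.9% and 28.7% of genes at 60, 120, 240 and 360 min. These comparisons share the spore libraries with those of DMSO. At 360 min the changes of POL30 (0.07 ± 0.19), CDC21 (-0.32 ± 0.15), CDC45 (0.37 ± 0.21) and CDC6 (-0.03 ± 0.20) over spores had adjusted p between 0.087 and 0.91. Without replicate A the same 3 members were called against spores, RFA2 at -1.36 and CDC9 at -1.52, and CDC21 was lower with the adjusted p alone (-0.38 ± 0.14, adjusted p = 0.023).

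Levels can be compared between genes only after division by length. Per kilobase of coding length, spores held most of RFA2 (131 ± 9.06 CPM per kb, SD, n = 3), then CDC9 (61.1 ± 6.72), POL30 (60.5 ± 5.20) and RFA1 (53.4 ± 3.04), and the last 3 did not differ beyond their spread. CDC21 followed at 35.1 ± 1.63, then CDC45 (17.9 ± 0.81), POL1 (16.6 ± 1.46) and POL2 (14.4 ± 2.06), of which each neighbour overlapped the next. RNR1 (8.51 ± 1.72) and CDC6 (5.02 ± 0.63) were last. After 360 min in DMSO the order of levels per kilobase was POL30 (242 ± 12.1), RNR1 (232 ± 11.3), RFA2 (96.6 ± 12.5), CDC21 (88.1 ± 7.85), RFA1 (73.2 ± 6.51), CDC9 (52.5 ± 3.89), POL1 (47.7 ± 3.13), CDC45 (44.8 ± 0.78), CDC6 (34.2 ± 3.08) and POL2 (30.4 ± 1.32). Of these neighbours, POL30 and RNR1, RFA2 and CDC21, CDC9 and POL1, POL1 and CDC45, and CDC6 and POL2 did not differ beyond their spread. RNR1 had thus moved from the ninth place to the second.

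As a description over the 15 condition means of log2(CPM + 1), which share libraries and a time axis, the members fell into a few shapes. POL30 and CDC21 were the closest pair (Pearson r = 0.94, Spearman rho = 0.88), followed by POL1 and POL2 (r = 0.93, rho = 0.94). CDC9 went with CDC21 and with RFA2 (r = 0.87 for both). RFA2 and POL2 were the least alike (r = -0.42). At 120 min in DMSO the mean of RFA2 was 22.5 CPM, its lowest, and that of POL2 was 153 CPM. Their means in spores were 122 and 96.0 CPM. Both genes were lower at 10 min in DMSO than in spores, at 75.5 CPM for RFA2 and 37.0 CPM for POL2. POL2 and POL30, with 1 MCB core each, had r = 0.19.

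The 8 other genes whose profile was most like the mean standardised profile of the members, among 5292 genes with a mean over 10 CPM, were TOM71 (r = 0.96), PRE5 (0.93), SWI4 (0.92), WBP1 (0.91), YIL082W-A (0.90), YGR109W-B (0.90), TOS6 (0.89) and XRN1 (0.89), over 15 conditions. Only SWI4, the DNA-binding subunit of SBF, belonged to the pathway lists. Its mean level was 79.1 CPM in spores, 36.3 CPM at 120 min and 175 CPM at 360 min in DMSO, and 83.2 CPM at 360 min in rapamycin. YGR109W-B is annotated as a retrotransposon polyprotein, a kind of gene with near-identical copies, so its level is uncertain. YIL082W-A ran close to it, at 95.6 CPM in spores and 404 CPM at 360 min in DMSO, against 88.8 and 424 CPM. Whether these genes share reads was not examined, so they may not be independent entries. Without rapamycin 360 min replicate A, 7 of the 8 genes remained among the first 8. By rank correlation TOS6 was in place 662 and the other 7 were in places 6 to 65. TOS6 was at 0.48 CPM in spores, 0.99 CPM at 120 min and 288 CPM at 360 min in DMSO, and 8.87 CPM at 360 min in rapamycin. It thus passed the mean of 10 CPM only through conditions where it was high, and its place in the list is not evidence of a shared profile.

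The rest of the pathway was examined in 67 further genes in 6 lists. In rapamycin against DMSO at 240 min, 13 of the 67 were called lower and 1 higher (median log2 fold change -0.51), beside 7.68% and 14.1% of all genes. The 13 include CLB6 and CLN2, which passed the filter on low counts only through the DMSO libraries, where they were high. Both are also among those called lower at 360 min. At 360 min 11 were lower and 1 higher (median -0.26), beside 5.3% and 10.4% of all genes, and without rapamycin replicate A 10 were lower and 1 higher. Of the 13 licensing genes, which encode the origin recognition complex, Cdt1 and the Mcm2 to Mcm7 helicase, only ORC2 was called at 240 min (-1.10 ± 0.07), and of 15 initiation genes none was. Among 15 genes of the polymerases and clamp loader, RFC5 (-1.497 ± 0.09) of the clamp loader and RFA3 (-1.29 ± 0.10), the third RPA subunit, were lower. Among 6 genes of Okazaki fragment maturation, RNH201 (-1.61 ± 0.15) and RNH202 (-1.46 ± 0.11), subunits of ribonuclease H2, were lower.

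Of 7 genes of deoxynucleotide supply, DUT1 (-1.59 ± 0.09), which encodes dUTPase, and SML1 (-1.38 ± 0.09), whose product inhibits ribonucleotide reductase, were called lower with rapamycin at 240 min. RNR3, an alternative large subunit of the same enzyme, was higher, at 18.6 ± 1.14 CPM against 3.04 ± 1.42 CPM (SD, n = 3; log2 2.56 ± 0.23), the opposite of RNR1. RNR3 had been at 219 CPM in spores. Of 11 genes of G1/S control, 6 were lower, among them the cyclin genes CLB6, CLN2 and CLN1. CLB6 and CLN2 passed the filter on low counts only through the DMSO libraries, where they were high, so the count of 6 carries them by construction. CLB6 had 81, 50 and 48 reads in DMSO and 0, 0 and 1 reads in rapamycin, a ratio of summed CPM, without TMM, of 178 (exact 95% interval 31.6 to 7085, counting error only). CLN2 had 444, 268 and 322 reads against 6, 2 and 18, and CLN1 changed by -1.85 ± 0.26.

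**Figure D4:**
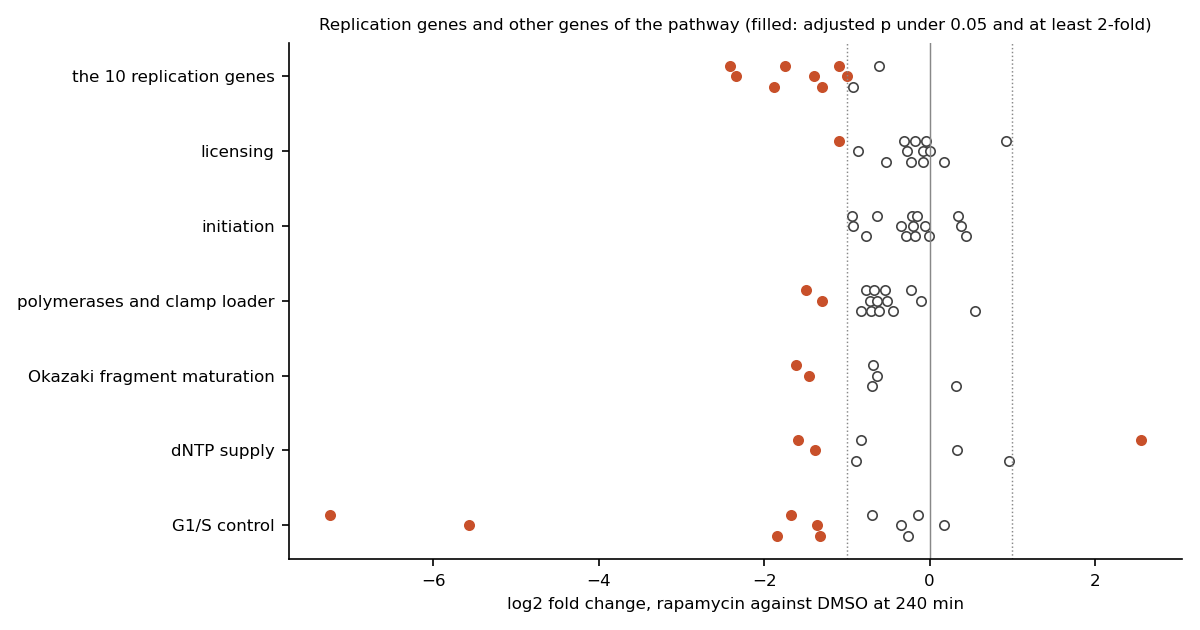
Log2 fold change of rapamycin against DMSO at 240 min for the 10 members and for 67 other genes in 6 pathway lists, 1 point per gene (filled points have an adjusted p under 0.05 and a change of at least 2-fold; dotted lines mark 2-fold). In the plot, 8 of 10 members and 6 of 11 G1/S control genes (among them CLB6 and CLN2, which passed the filter only through DMSO) are filled and below 0, against 1 of 13 licensing genes and 0 of 15 initiation genes.

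During germination in DMSO the same lists looked different. At 360 min against spores, 29 of the 67 genes were higher and 5 lower (median log2 fold change 0.74), beside 29.4% and 28.6% of all genes. MCM7 (4.73 ± 0.12), ORC5 (2.51 ± 0.14) and MCM5 (1.92 ± 0.10) led the 7 licensing genes that rose, and CLN1 rose by 6.15 ± 0.18. CLN2 and CLB6, at means of 0.44 and 0.23 CPM in spores, were also among the 7 genes of G1/S control called higher but passed the filter only through the DMSO libraries. RFC5 (3.25 ± 0.15) and DPB2 (2.61 ± 0.13), a subunit of polymerase epsilon, led 6 of 15 genes of the polymerases and clamp loader. RNR3 fell by 5.79 on the log2 scale while DUT1 (3.64 ± 0.13) and DUN1 (2.12 ± 0.13), a checkpoint kinase gene, rose. Between 120 and 240 min in DMSO, where 6 of the 10 members rose, 10 of the 67 other genes were called higher beside 14.3% of all genes, 5 of them in G1/S control, CLN2 and CLB6 included, and 0 of 13 in licensing. CLN2 and CLB6 passed the filter at this step only through the 240 min libraries, where they were high, so the counts of 10 and 5 carry them by construction.

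The genes that share the MCB core were followed outside the list too. Outside the members, 169 tested genes held the core in the window, and 8 of them (4.73%) were called lower with rapamycin at 240 min and 15 (8.88%) higher, beside 7.68% and 14.1% of all genes tested. Their median log2 fold change was -0.20. The 15 other genes with at least 2 cores had a median of -0.31, with 2 called lower (13.3%) and 0 higher. In the step from 120 to 240 min in DMSO, 16.1% of the genes with a core and 33.3% (5 of 15) of those with at least 2 were called higher, beside 14.3% of all genes. Among the 67 pathway genes, 1 of 21 with a core (median log2 fold change -0.68) and 12 of 46 without it (median -0.29) were called lower with rapamycin at 240 min. The 12 include CLB6 and CLN2, which passed the filter only through the DMSO libraries. These lists by promoter letters were drawn up after the members' values were known.

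The 4 histone genes examined, whose transcripts accumulate in S phase, rose together only between 240 and 360 min in DMSO. This was after the rise of 6 members between 120 and 240 min, but CDC6 also rose most at the later step. The sum of HTA1, HTB1, HHT1 and HHF1 was between 1279 and 1541 CPM in spores, 453 and 477 CPM at 120 min, 288 and 416 CPM at 240 min and 1566 and 1641 CPM at 360 min in DMSO. At 240 min, when 6 members had risen, HTA1 was higher than at 120 min (1.37 ± 0.18), HHT1 lower (-1.20 ± 0.11), and HTB1 and HHF1 were not called. Between 240 and 360 min all 4 rose, by 1.76 to 2.99 on the log2 scale. With rapamycin their sum was between 520 and 600 CPM at 240 min, above all DMSO libraries of that time. HTA1 alone went the other way (log2 -0.61 ± 0.19), while HTB1, HHT1 and HHF1 were higher by 0.68 to 0.95, each under 2-fold. At 360 min the sum with rapamycin was between 227 and 353 CPM. The 4 genes were then lower than in DMSO, at log2 fold changes from -1.92 to -3.13, or from -1.66 to -3.28 without rapamycin replicate A. Each histone gene has a close second copy in yeast, and how reads were divided between copies was not examined.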

How the data were processed

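Samples were assigned to conditions, time points and replicate letters from the sample labels, and all 45 libraries were used. The authors deposited raw counts per gene, whole numbers without normalization. They enriched poly-A RNA, made strand-specific libraries, trimmed single-end reads of 101 bases with Trimmomatic 0.33, aligned them with hisat2 to the SK1 genome and counted them with HTSeq in union mode on the gene's strand with the R64-1-1 annotation. Reads from sequence that differs between SK1 and that annotation can be lost. The record's text names another aligner and a human genome build, which were not followed.

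Counts of each comparison were fitted on its own libraries (R 4.3.3, edgeR 4.0.16), after keeping genes over 1 CPM in at least 3 libraries and TMM scaling, with glmQLFit and glmQLFTest. Adjusted p-values are over all genes tested. Standard errors are the log2 fold change divided by the root of the F statistic. DESeq2 1.42.0, scaling by library size, no filter, no fold minimum, a replicate block, 1 fit over all libraries and leaving out each library were alternatives. The fits were tested on simulated data. Nothing in the labels says that replicates came from separate cultures, so p-values measure the spread between these libraries, which may be technical. No pair agreed within sampling noise (smallest chi-square per degree of freedom 5.49). Same-lettered libraries deviated together (every correlation over 0.1) in 12 of 24 comparisons of 2 groups.

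For printing, levels were TMM-scaled over all 45 libraries. Names, lengths and promoters came from RefSeq's annotation of R64, which matched 6008 of 6723 identifiers, the rest holding 0.216% of counts. No stretch of read length in a member occurred elsewhere in R64, and no member overlapped another gene. The members and lists were chosen with earlier results of these data known. The text names the 10 members, from each list at most the 3 genes with the largest change among those called in rapamycin against DMSO at 240 min or in DMSO at 360 min against spores, and the 8 most alike profiles. The marker genes were set as lists.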

Additional observations from a re-analysis of the deposited data

Results flagged for a closer look

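The change after 120 min differed between rapamycin and DMSO, by edgeR's interaction test over 12 libraries with an adjusted p under 0.05, in 9 members up to 240 min and in 9 up to 360 min. All 9 were lower with rapamycin each time, beside 33.9% of all genes lower and 37.7% higher up to 240 min and 29% and 32.3% up to 360 min. The values are differences of log2 changes, rapamycin against DMSO, and negative values mean a lower change with rapamycin, either a smaller rise or a fall. Up to 240 min they were -0.97 for RNR1, -0.45 for POL2, -2.36 for POL30, -1.90 for RFA1, -1.98 for RFA2, -1.45 for CDC9, -2.59 for CDC21, -0.56 for CDC45 and -0.91 for CDC6. Up to 360 min they were -1.93 for RNR1, -0.42 for POL1, -0.48 for POL2, -1.84 for POL30, -1.49 for RFA1, -1.96 for RFA2, -0.999 for CDC9, -1.85 for CDC21 and -2.36 for CDC6. For RFA1 and RFA2 the difference includes the higher level with rapamycin at 120 min.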

How the results depend on the processing

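The number of members called was within 1.5 times its reported value in all 26 comparisons under DESeq2, without the filter, in 1 fit over all libraries and with the replicate block, and in 21 under scaling by library size. The replicate block changed no call of a member among the 80 single values examined (8 members at rapamycin against DMSO at 240 min with and without it), and it added CDC9 to the interaction up to 360 min (7 members). Scaling by library size moved the median of all genes by 0.37, 0.33, -0.20, -0.44 and -0.29 against spores at 10, 30, 60, 120 and 240 min in DMSO, and by 0.35, 0.54, 0.24 and 0.12 in rapamycin against DMSO at 60, 120, 240 and 360 min. All calls went from 592 higher and 501 lower to 1006 and 241 at 60 min, and from 1207 and 882 to 1900 and 472 at 120 min. Under it 2 members were called at 30 min in DMSO and 2 at 30 min in rapamycin against spores, 3 at 240 min in DMSO against spores (RNR1 and POL30 higher, RFA2 lower), and in rapamycin against DMSO 1 at 60 min (RFA1) and 2 at 120 min (RFA1 and RFA2). It turned the sign of CDC45 at 120 min (-0.23) and CDC21 at 240 min (-0.0222) against spores, of POL2 and CDC9 at 60 min (both 0.23) and of POL2 (0.33), POL30 (0.43), CDC9 (0.18) and CDC6 (0.089) at 120 min in rapamycin against DMSO; the cause was not tested. Without a fold minimum, which lets smaller changes count, the members called were 10 at 10 min, 10 at 60 min and 8 at 240 min in DMSO against spores, 10, 9 and 8 at 10, 60 and 120 min in rapamycin against spores, 4 and 6 in rapamycin against DMSO at 60 and 120 min, 4 from 60 to 120 min and 10 from 240 to 360 min in DMSO, and 9 for the interaction up to 240 min, while in these comparisons 42.5% to 88.8% of all genes passed. Without the filter RFA1 at 240 min in DMSO against spores was 0.00078. Leaving out 1 library gave 3 to 5 members at 30 min in DMSO against spores and 0 to 1 in rapamycin against DMSO at 60 min (1 without DMSO replicate B), and turned the sign of values near 0: RFA1 at 240 min in DMSO against spores (-0.11 to 0.026), and in rapamycin against DMSO POL2 (-0.24 to 0.077), CDC9 (-0.19 to 0.0058) and CDC6 (-0.019 to 0.12) at 60 min and POL30 at 120 min (-0.11 to 0.0028). Mean levels scaled by library size alone were 0.735 to 1.26 times the printed ones. In windows of only the 250 bases before the start, 9 members and 2.9% of all genes held the MCB core, and 3 members and 12.5% of all genes the SCB element.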
